A study of Mus musculus with 22 samples.

Results

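The proteins of the cytosolic ribosome were followed in testis, brain and muscle of Sgms1 mutant and wild-type mice. Every probe of an Illumina mouse bead array was taken whose platform symbol starts with Rpl or Rps and a number, or is Rplp0, Rplp1, Rplp2 or Rpsa, and the ribosomal S6 kinases were left out. This gave 84 probes of 66 gene symbols among 25697 probes on the array, and 15 of the genes had more than 1 probe. The rule also took 2 symbols that encode no core subunit: Rps19bp1, a protein that binds ribosomal protein S19, and Rps23rg1, a retroposed copy of Rps23.

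The ribosome translates messenger RNA on a small subunit that reads the message and a large subunit that joins the amino acids. Each subunit is built on ribosomal RNA from a set of proteins that nearly all cells need, and their genes are among the most abundantly transcribed in mammals. Many of their messages begin at the cap with a run of pyrimidines, the terminal oligopyrimidine tract, through which growth signals control their translation. A few ribosomal proteins have paralogues with narrower use. Rpl3l is a striated muscle copy of Rpl3, Rpl39l is a testis copy of the X-linked Rpl39, and Rpl36al is an autosomal copy of the X-linked Rpl36a. X-linked genes are silenced in male germ cells during meiosis.

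Sgms1 encodes sphingomyelin synthase 1, which makes sphingomyelin from ceramide in the Golgi apparatus. Testis RNA came from 4 Sgms1 mutant and 4 wild-type mice at 27 weeks of age. Brain and muscle RNA came from 4 Sgms1 mutant and 3 wild-type mice at 17 weeks, with both tissues taken from the same 7 mice. All mice were C57BL/6J, the series speaks of male mutants, and 15 mice gave 22 arrays, each a library of 1 mouse and 1 tissue. The labels do not state the kind of Sgms1 mutation.

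Levels are log2 intensities after background correction and quantile normalization, with an offset of 16 added. Values near 4.2 therefore mark probes at the background of the array. Testis arrays were the dimmest, with median intensities of 93.7 to 107, while those of brain spanned 112 to 142.9 and those of muscle 133 to 142.8. The number of arrays limits the precision, and levels of different probes are not set against each other. Germ cell markers were detected on all 8 testis arrays (7 of 7 genes). Of 7 brain markers 5 were detected on all brain arrays, with Snap25 and Nefl on none, and all 8 skeletal muscle markers were detected on all muscle arrays. Epididymis markers, of the duct beside the testis, were nearly lacking in 1 testis library: their summed linear level was 389 in wild type 4, against 17845 to 21698 in the 4 mutant testes and 19176 to 26598 in wild types 1 to 3. Testis wild type 2 was the dimmest array. Sgms1 itself was at 7.13 to 7.50 in mutant muscles, against 7.77 to 8.12 in wild-type muscles, and at 4.97 to 5.89 in mutant testes, against 5.43 to 6.55 in wild-type testes, where the genotypes overlapped. In brain, the library labelled mutant 2 had 8.14 (6.31 to 6.59 for the rest labelled mutant), and the one labelled wild type 3 had 6.64 (8.07 and 8.33 for the rest). Both go against their labels. Without the mice of these 2 libraries, 0 members passed between genotypes in brain, 26 were higher and 21 lower in brain than in muscle, and 12 were higher and 47 lower in testis than in brain, close to the counts given below. Pituitary markers had summed levels of 27.3, 22572 and 4174 in the brains labelled wild type 1, 2 and 3. In the brains labelled mutant these levels were 30.3 to 51.2, so wild type 1 was the lowest of all.

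The start regions of 9 members are printed because the results turn on these genes: paralogues with their parent genes where a sequence was at hand, and 2 of the core genes that differed most between tissues. Each is the gene strand from 40 bases before to 20 bases after the gene start in RefSeq, build GRCm38.p6, and the capitals mark the longest run of C and T.
Rpl3l (chr17:24727786-24727845, plus strand): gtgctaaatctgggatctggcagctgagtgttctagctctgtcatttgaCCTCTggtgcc
Rpl39 (chrX:37085203-37085262, minus strand): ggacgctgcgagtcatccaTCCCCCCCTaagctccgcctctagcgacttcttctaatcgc
Rpl39l (chr16:10170188-10170247, plus strand): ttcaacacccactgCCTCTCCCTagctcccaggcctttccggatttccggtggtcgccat
Rpl36a (chrX:134585614-134585673, plus strand): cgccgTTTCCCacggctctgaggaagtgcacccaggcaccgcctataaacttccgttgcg
Rpl36al (chr12:69184048-69184107, minus strand): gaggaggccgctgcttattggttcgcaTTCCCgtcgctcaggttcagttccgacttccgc
Rps27l (chr9:66946046-66946105, plus strand): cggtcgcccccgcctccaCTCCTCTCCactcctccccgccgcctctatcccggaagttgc
Rps27 (chr3:90213629-90213688, minus strand): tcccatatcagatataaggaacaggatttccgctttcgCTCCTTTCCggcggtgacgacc
Rps15a (chr7:118116128-118116187, minus strand): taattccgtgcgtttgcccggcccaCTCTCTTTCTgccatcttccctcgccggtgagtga
Rpl27a (chr7:109519155-109519214, plus strand): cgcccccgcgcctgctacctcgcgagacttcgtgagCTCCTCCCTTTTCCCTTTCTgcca

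The longest run covered 20 bases in Rpl27a and 10 in Rps15a, both genes of the core ribosome, and 5 bases in the muscle paralogue Rpl3l. Among the printed genes it crossed the gene start in Rpl27a (from -4) and Rps27 (from -2), and lay after it in Rpl3l (from 10). In the other printed genes, such as Rps15a (from -15), it ended before the start. Of the 66 symbols, 57 had a start region in the RefSeq table. A run of at least 8 C or T on the gene strand lay within this 60-base window in 28 of these 57 members (49.1%), against 24% of 27026 gene starts. This counts a run anywhere in the window and is no count of messages that begin with a pyrimidine tract. The sequence CCGGAAG, on either strand and anywhere from 250 bases before to 50 bases after the start, was found in 21 members (36.8%), against 9.14% of all starts. CTTTCC was found in 26 members (45.6%) and TATAAA in 6 (10.5%) of the same windows, against 26.4% and 14.2% of all starts. CTTTCC can lie inside a run of C and T, so those counts overlap. A match describes the letters and does not show a site in use.

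A probe counts as detected where its detection p is under 0.05. Of the 84 probes, 59 were detected on all 22 arrays, 19 on some and 6 on none. The 6 that were never detected belonged to Rpl14, Rpl6 and Rplp2, each with its single probe, and to 1 of several probes of Rpl4, Rpl23 and Rpsa. Probes detected on at least 3 arrays of a tissue were tested: 67 probes of 58 genes in testis, 72 of 59 genes in brain and 68 of 58 genes in muscle. In muscle 1 of these, a dim Rps19 probe, was detected in 1 genotype only. Processed pseudogenes and near-identical copies exist for many ribosomal protein genes, and the probes were not checked for matches to them here.

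The first comparison asked whether ribosomal protein messages differed between mutant and wild-type mice. No member passed the test in any tissue. With limma and Benjamini-Hochberg adjustment at 5% over all probes tested, 0 of 67 members were called in testis (0% of all probes), 0 of 72 in brain (0%) and 0 of 68 in muscle (0.105%, 12 of 11391 probes, with 0.0527% higher and 0.0527% lower). The smallest adjusted p of a member in limma was 0.834 in testis, 0.9995 in brain and 0.363 in muscle. At an unadjusted p under 0.05 there was 1 member in testis (5.53% of all probes), 1 in brain (3.85%) and 3 in muscle (9.18%). The members' shares at that limit lay below those of all probes in every tissue.

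The differences themselves were small. On the log2 scale, mutant minus wild type spanned -0.89 to 0.48 over the testis members. The span was -0.13 to 0.45 in brain and -0.37 to 0.33 in muscle. The median standard error of a member was 0.18 in testis, 0.11 in brain and 0.12 in muscle. The members' median difference was -0.10 in testis (21 above 0 and 46 below, median of all probes 0.02), 0.01 in brain (40 above and 32 below, all probes 0.00) and -0.04 in muscle (23 above and 45 below, all probes 0.01). The sign of the testis median depended on the scaling, since with median scaling it was 0.05 and that of all probes 0.12. It was -0.002 without wild type 2 and -0.22 without wild type 4. In brain the sign changed with median scaling too, to -0.03 (all probes -0.05).

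**Figure D1:**
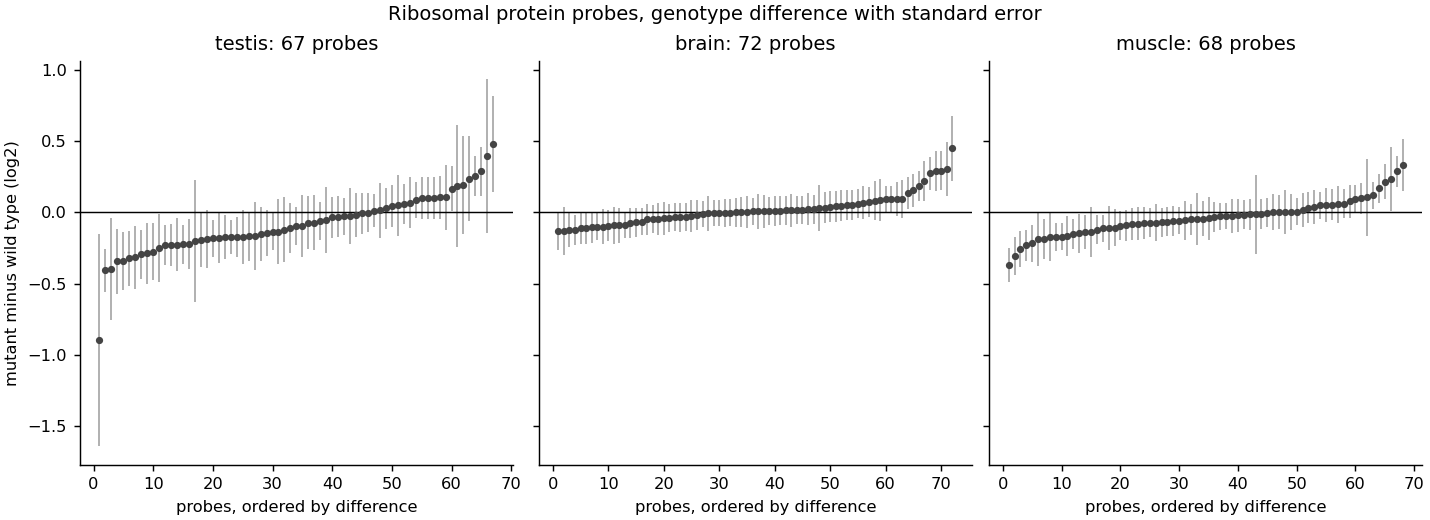
Mutant minus wild type of each tested ribosomal protein probe (log2, vertical axis), ordered from lowest to highest within testis, brain and muscle (horizontal axis). Points are differences and bars are standard errors; the points lie closer to 0 in brain and muscle than in testis, where the lowest, at -0.89, is a probe of Rpl29.

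Among large subunit genes, Rpl3, which shapes the peptidyl transferase centre, is given for testis and muscle, and it passed in neither. In testis its level was 9.98, 10.06, 9.92 and 9.91 in mutants, against 9.83, 10.01, 9.52 and 9.50 in wild types, a difference of 0.25 (SE 0.14, adjusted p = 0.834, limma). In muscle it was 10.26, 9.99, 10.03 and 10.11 in mutants, against 10.33, 10.16 and 10.58 in wild types, a difference of -0.26 (SE 0.13, adjusted p = 0.587, limma). The groups overlapped in both tissues. The test of the difference between the effects in testis and muscle gave 0.49 (SE 0.20, adjusted p = 0.676, limma).

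Rpl13a, a large subunit protein that in human cells also takes part in silencing inflammatory messages, was 6.75, 6.63, 6.47 and 6.53 in mutant muscle, against 6.34, 6.35 and 6.24 in wild-type muscle. All 4 mutant values lay above all 3 wild-type values, with a difference of 0.29 (SE 0.11, adjusted p = 0.434, limma). Rps19, whose human counterpart is mutated in Diamond-Blackfan anaemia, was read by 2 probes in muscle. The brighter probe read 11.30, 11.25, 11.37 and 11.22 in mutants, against 11.48, 11.47 and 11.42 in wild types, a difference of -0.17 (SE 0.10, adjusted p = 0.668, limma). That difference did not pass, though the groups did not overlap. The dim probe read 4.56 to 4.67 in mutants, against 4.83 to 5.24 in wild types. It was detected in 0 of 4 mutants and 3 of 3 wild types, and so entered the test only through the wild types: its difference lends no support to that of the brighter probe. The smallest adjusted p in muscle, given above, was that of this dim probe.

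In muscle the genotype groups of 6 of 68 members did not overlap, against 8.88% of all muscle probes, and 1 of the 6 was the dim Rps19 probe. The share was no larger than that of all probes, and nothing is read from it. The others were the brighter Rps19 probe, Rpl13a, Rplp1, Rpl27 and 1 probe of Rpl21, the last 2 named because of these values. Rplp1, a protein of the stalk that recruits elongation factors, read 13.79, 13.81, 13.81 and 13.65 in mutants, against 13.97, 13.87 and 13.97 in wild types (difference -0.17, SE 0.10, adjusted p = 0.678, limma). Fat cell markers moved with the same grouping: their summed linear level was 496 to 1333 in mutant muscles, against 2269 to 4555 in wild-type muscles. Slow fibre markers were uneven too, with summed levels of 7602 and 8532 in mutant muscles 1 and 2, against 1027 and 2260 in mutants 3 and 4. Wild-type muscles had 1026 to 2107. The part of fat cells or slow fibres in these differences was not tested. In brain 1 of 72 members, Rps12, did not overlap (4.44% of all probes), and in testis 0 of 67 (3.42%).

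The member with the smallest p in testis was Rps19bp1, the S19 binding protein, which is no part of the ribosome. It read 4.68, 4.38, 4.91 and 4.60 in mutant testes, against 4.84, 4.90, 5.30 and 5.16 in wild-type testes. These values lie near background and overlap between the genotypes (difference -0.41, SE 0.15, adjusted p = 0.834, limma). In brain it was Rps9, a small subunit protein, with 10.87, 11.06, 10.92 and 10.70 in libraries labelled mutant, against 10.77, 10.53 and 10.55 in those labelled wild type. The difference was 0.27 (SE 0.12, adjusted p = 0.9995, limma), and the groups overlapped. The other Rps9 probe differed by -0.05 (SE 0.10).

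Rpl29, a large subunit protein that also binds heparin, gave the widest spread within a genotype. Its first probe (ILMN_2730005) read 8.36, 8.38, 8.24 and 4.29 in mutant testes, against 8.65, 8.53, 7.36 and 8.32 in wild-type testes. Mutant 4 was the only testis library in which this probe was not detected. The second probe (ILMN_2857570) was also lowest in mutant 4, with 7.82, 8.00, 8.16 and 6.32 in mutant testes, against 8.00, 8.63, 7.48 and 7.78 in wild-type testes. Differences were -0.89 (SE 0.75) and -0.40 (SE 0.36), and neither passed (adjusted p = 0.868 and 0.874, limma). In brain the first probe was highest in the libraries labelled mutant 1 and 2, at 8.37 and 8.61, with 7.92 and 7.44 in the other 2 labelled mutant, against 7.55, 7.69 and 7.68 in those labelled wild type. Both probes were highest in these same 2 brains, and the difference did not pass (0.45, SE 0.23, adjusted p = 0.9995, limma).

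**Figure D2:**
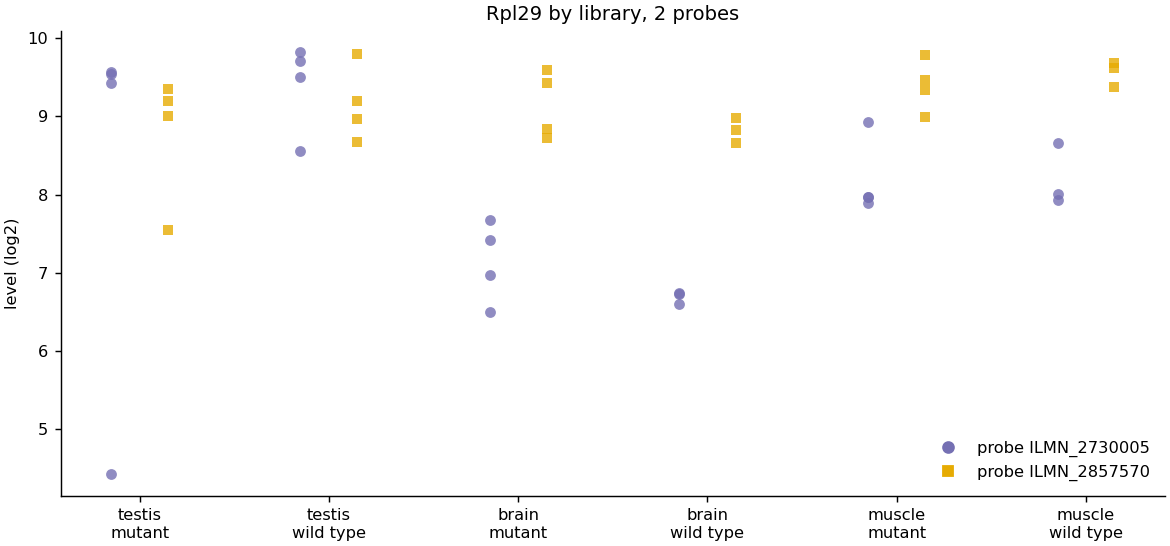
Level of Rpl29 (log2, all 22 arrays normalized together, vertical axis) for each library of mutant and wild-type testis, brain and muscle, with circles for probe ILMN_2730005 and squares for probe ILMN_2857570. Testis mutant 4 stands alone at 4.42 for the first probe, and the second probe is also lowest there among testis libraries, at 7.55.

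No paralogue passed the genotype test. Rpl3l read 7.21, 6.71, 7.18 and 7.48 in mutant testes, against 7.16, 7.58, 7.70 and 4.57 in wild-type testes. Of these, 7 testes lay within 6.71 to 7.70 and wild type 4 lay alone at 4.57. The difference was 0.39 (SE 0.54, adjusted p = 0.919, limma). Rpl39l was 5.06, 4.94, 4.62 and 5.25 in mutant testes, against 4.95, 5.24, 4.81 and 4.96 in wild-type testes (difference -0.02, SE 0.15, adjusted p = 0.986, limma). In muscle, where Rpl3l is brightest, it was 13.88 ± 0.04 (SD, n = 4) in mutants and 13.90 ± 0.02 (SD, n = 3) in wild types, a difference of -0.03 (SE 0.09, adjusted p = 0.972, limma). Rpl36al, Rps27l, Rpl22l1 and the brighter Rpl7l1 probe did not pass in any tissue in which they were tested.

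The genotype effect was also compared between tissues. With an interaction term, or within the mouse for brain and muscle, limma called 0 members in each of 3 comparisons. Of all probes, 0.0123% passed for brain against muscle, 0% for testis against brain and 0.00664% for testis against muscle. At an unadjusted p under 0.05 there were 3, 1 and 1 members, against 6.71%, 4.59% and 6.67% of all probes.

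The tissues themselves differed strongly. Arrays of all tissues were normalized together for this purpose. Brain and muscle were compared within the mouse, whereas testis came from other, older mice, so that tissue and age cannot be told apart there. In whole tissue, a change in the share of a cell type and a change in message per cell cannot be told apart. Of 73 members tested between brain and muscle, 31 were higher in brain (42.5%, against 38.9% of all probes) and 22 lower (30.1%, against 40.3% of all probes, 79.1% of which differed one way or the other). Of 74 tested between testis and brain, 12 were higher in testis (16.2%, against 35.9% of all probes) and 52 lower (70.3%, against 46.9% of all probes, 82.8% of which differed). Of 69 tested between testis and muscle, 11 were higher in testis (15.9%, against 37.5% of all probes) and 46 lower (66.7%, against 45.3% of all probes, 82.7% of which differed).

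The members' median difference was 0.14 for brain minus muscle (all probes -0.02), -0.62 for testis minus brain (all probes -0.15) and -0.70 for testis minus muscle (all probes -0.15). Scaling each array by its median in place of quantiles moved the median of all probes to 0.32, -0.65 and -0.25, and that of the members to 0.39, -1.77 and -1.48. With that scaling 48 members were higher and 10 lower in brain than in muscle, so that 82.8% of the member calls were higher, against 58.5% with quantiles. It left 4 higher and 63 lower in testis than in brain (5.97% of calls higher, against 18.8%), and 1 higher and 61 lower in testis than in muscle (1.61%, against 19.3%). Of all probes tested, called or not, 53.3%, 28.7% and 30.4% were then higher, and 29.5%, 58.3% and 50.3% lower, in the same order. The member shares just given are of calls, so they are not to be set against these shares of probes tested. In calls, all probes gave 8707 higher and 4808 lower for brain minus muscle. They gave 5009 and 10187 for testis minus brain, and 4579 and 7565 for testis minus muscle. Under both scalings more members were lower than higher in testis, and more were higher than lower in brain than in muscle.

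**Figure D3:**
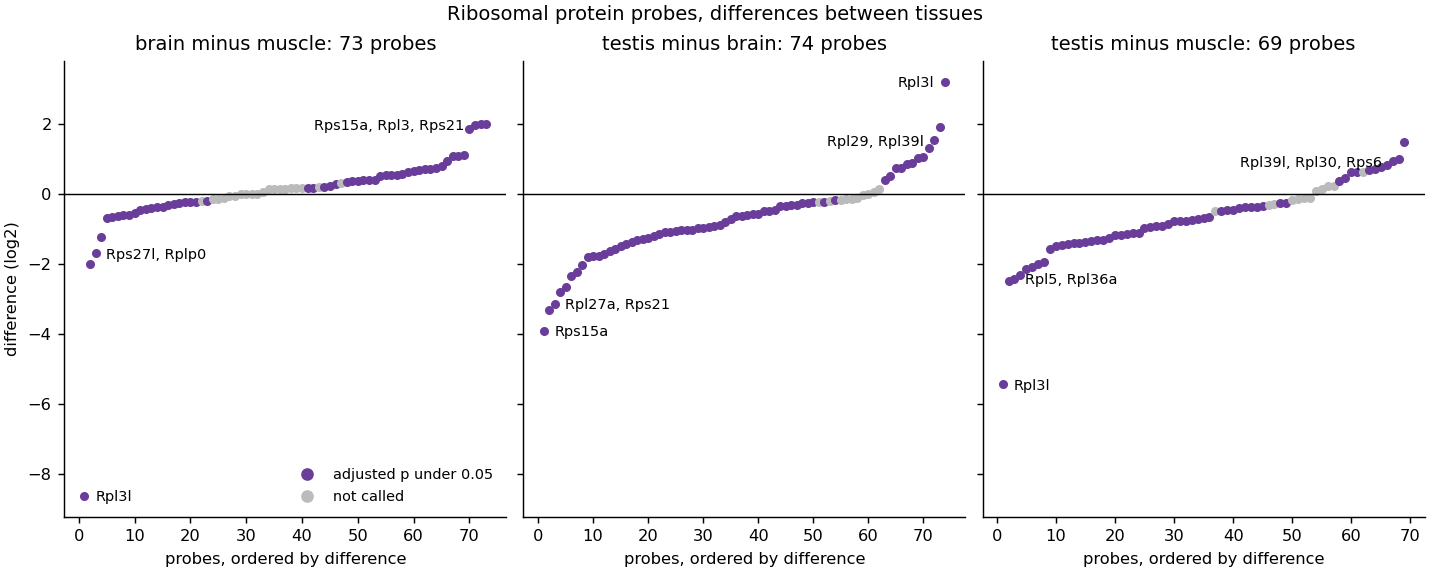
Difference of each tested ribosomal protein probe (log2, vertical axis) for brain minus muscle, testis minus brain and testis minus muscle, ordered from lowest to highest (horizontal axis). Purple points passed 5% after adjustment over all probes and grey points did not; the 3 lowest and 3 highest genes are named, with Rpl3l at -8.63 in the first panel.

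Rpl3l and its parent Rpl3 ran in opposite directions between brain and muscle. Rpl3l had a lowest, median and highest level of 4.77, 4.82 and 5.17 over 7 brains, against 13.46, 13.51 and 13.54 over 7 muscles. The log2 difference was -8.63 (SE 0.07, brain 397-fold lower, adjusted p = 4.52e-15, limma). Rpl3 had 12.19, 12.37 and 12.42 in brain, against 10.15, 10.31 and 10.68 in muscle, a difference of 1.97 (SE 0.08, adjusted p = 4.75e-10, limma). No brain value overlapped a muscle value for either gene, and both directions held with median scaling (-8.96 and 2.24). Brain Rpl3l lies near background, and its difference from muscle ranged from -8.96 to -6.41 over the settings tried, the smallest without background correction.

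In testis Rpl3l lay between the other tissues in 7 of 8 libraries. Its lowest, median and highest testis levels were 5.09, 8.40 and 8.89, and the lowest was that of wild type 4, which lay within the brain range of 4.77 to 5.17. Testis exceeded brain by 3.19 (SE 0.43, adjusted p = 4.13e-06, limma), and testis minus muscle was -5.44 (SE 0.42, adjusted p = 2.38e-09, limma). Without wild type 4, testis minus brain was 3.66 and testis minus muscle -4.99, and without background correction testis minus brain was 1.51. Skeletal muscle markers were low in testis: their summed linear level was 65.7 to 93.2 in mutant testes and 72.6 to 153 in wild-type testes, against 115599 or more in muscle. Rpl3 was 10.64, 11.07 and 11.22 in testis, a difference of -1.33 from brain (SE 0.09), and its difference of 0.62 from muscle (SE 0.10) turned to -0.26 with median scaling.

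The testis paralogue was Rpl39l. It was detected on 8 of 8 testis arrays and on 0 of 7 brain and 0 of 7 muscle arrays. Its testis levels were 5.19, 5.80 and 6.26 (lowest, median, highest), against 4.22, 4.32 and 4.47 in brain and 4.19, 4.28 and 4.55 in muscle. Measured against the lowest signal detected on each array, testis was at least 2.54-fold higher than brain and at least 1.80-fold higher than muscle. Rpl39l entered both tests only through testis, where it was high, so no p-value is read from them. Both directions held with median scaling (1.24 and 0.75). Its X-linked parent Rpl39, a small protein of the exit tunnel, had 7.93, 9.19 and 10.49 in testis, against 11.38, 11.46 and 11.58 in brain and 11.13, 11.30 and 11.67 in muscle. Testis minus brain was -2.23 (SE 0.27, adjusted p = 1.32e-06, limma) and testis minus muscle -2.09 (SE 0.27, adjusted p = 2.23e-06, limma), with no overlap.

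Rpl36a, X-linked and part of the large subunit, was also lowest in testis. It had 6.20, 7.25 and 7.87 in testis, against 9.88, 9.99 and 10.21 in brain and 9.45, 9.61 and 9.95 in muscle. Testis minus brain was -2.80 (SE 0.22, adjusted p = 5.76e-09, limma) and testis minus muscle -2.44 (SE 0.22, adjusted p = 2.35e-08, limma). Its autosomal copy Rpl36al had 11.93, 12.36 and 12.79 in testis, against 11.33, 11.53 and 11.55 in brain and 12.05, 12.16 and 12.28 in muscle. Rpl36al was thus 0.88 higher in testis than in brain (SE 0.11), but with median scaling this turned to -0.45. Its difference of 0.21 between testis and muscle did not pass (SE 0.12, adjusted p = 0.109, limma, and -0.997 with median scaling).

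The array held 4 X-linked members: Rpl10, at the core of the peptide joining site, Rpl36a, Rpl39, and the small subunit gene Rps4x. They were grouped by chromosome after their values were seen. All 4 were lower in testis than in brain, with a median difference of -1.84 against -0.62 for all members, and all 4 were lower in testis than in muscle (median -1.77 against -0.70). Between brain and muscle 1 was higher and 1 lower. Rpl10 had 8.93, 10.73 and 11.59 in testis, against 11.56, 11.74 and 11.86 in brain, where the highest testis value overlapped the brain range, and 11.93, 12.10 and 12.18 in muscle. Rps4x had 9.11, 10.69 and 11.05 in testis, against 11.73, 12.01 and 12.22 in brain and 11.81, 11.96 and 12.05 in muscle. Without testis wild type 4 the difference between testis and brain was -0.80 for Rpl10, -2.66 for Rpl36a, -1.99 for Rpl39 and -1.23 for Rps4x, and each still passed. An autosomal copy of Rpl10 that is used in testis was not analysed here.

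**Figure D4:**
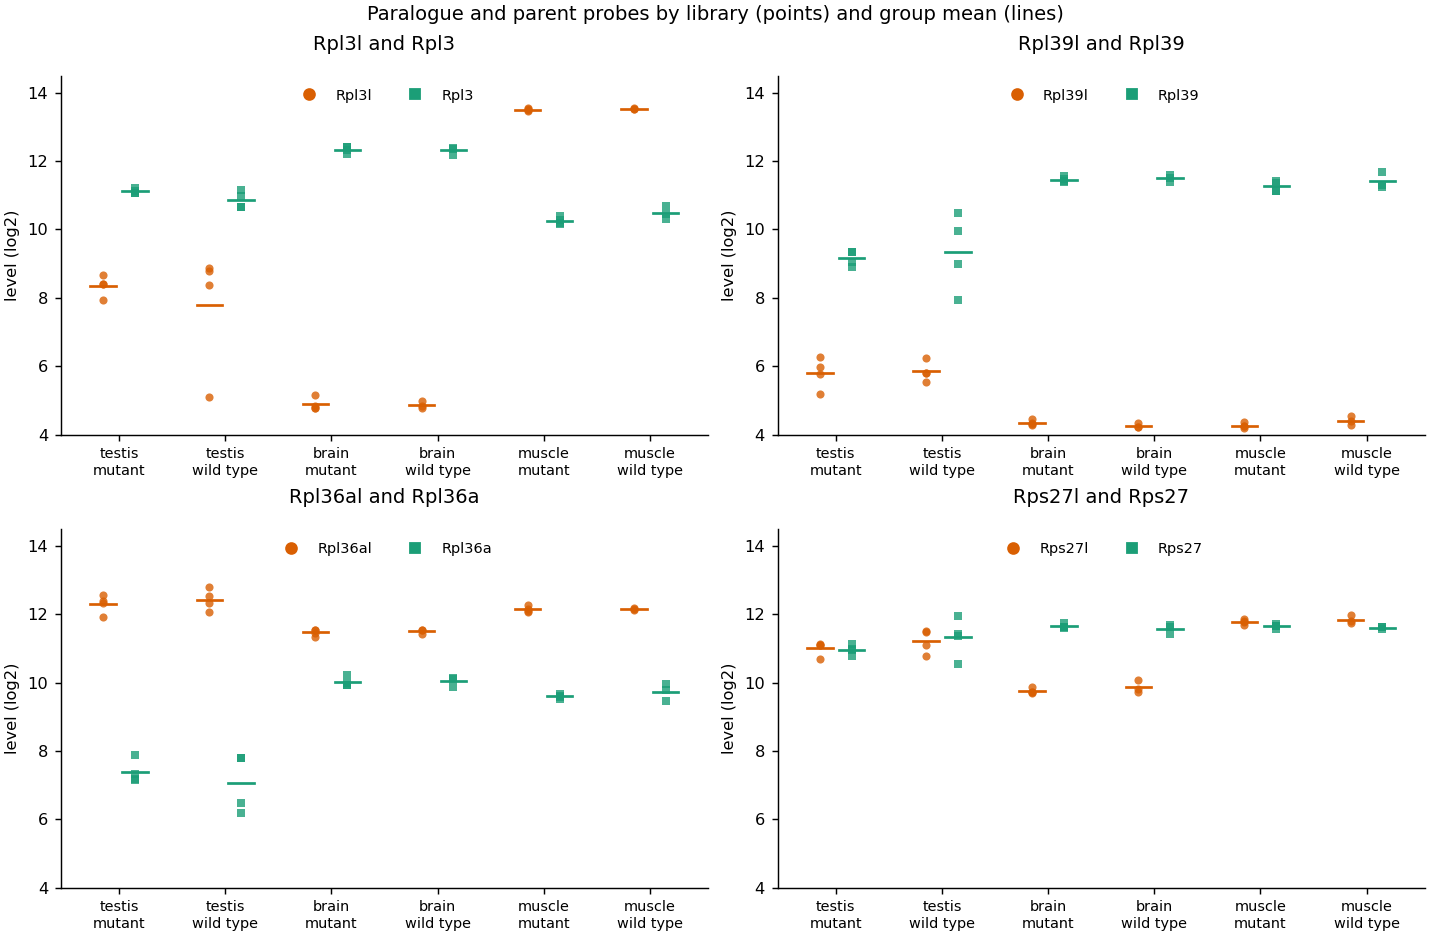
Level (log2, all 22 arrays normalized together, vertical axis) of a paralogue (circles) and its parent gene (squares) in each library of mutant and wild-type testis, brain and muscle, with group means as lines. Levels are to be read along each gene and not between the 2 probes: Rpl3l sits near 13.51 in every muscle library, and the Rpl39 and Rpl36a values of testis lie below those of brain and muscle.

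Testis wild type 4, singled out after its values were seen, stood apart for these genes. In wild type 4, 32 of 67 members lay below all 7 other testis libraries (47.8%, against 15.0% of all probes), and 0 lay above them (18.4% of all probes). The 5 members that fell furthest below the mean of the others were Rpl3l and all 4 X-linked genes. Rpl3l was 4.57 there, against 6.71 to 7.70 in the others. Rpl10 was 7.75 (9.24 to 10.43 in the others), Rps4x 7.92 (9.39 to 9.89), Rpl39 6.71 (7.71 to 9.34) and Rpl36a 5.21 (5.40 to 6.64). The testis paralogue Rpl39l was 4.96 there, within the 4.62 to 5.25 of the others, and Rps27l, at 9.95, was also within their range of 9.53 to 10.36.

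The epididymis markers moved with these genes. Of 6 markers with a probe, 4 were detected in wild type 4, where Spag11b was 6.87 (12.41 to 13.30 in the others) and Adam7 6.06 (11.09 to 12.27). Germ cell markers did not stand apart, with summed linear levels of 40459 to 50301 in mutant testes and 45151 to 54212 in wild-type testes. The part of epididymal RNA in the testis levels of Rpl3l and of the X-linked members was not tested. Each of the 4 X-linked members was lower in wild type 4 than in any of the other 21 arrays.

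**Figure D5:**
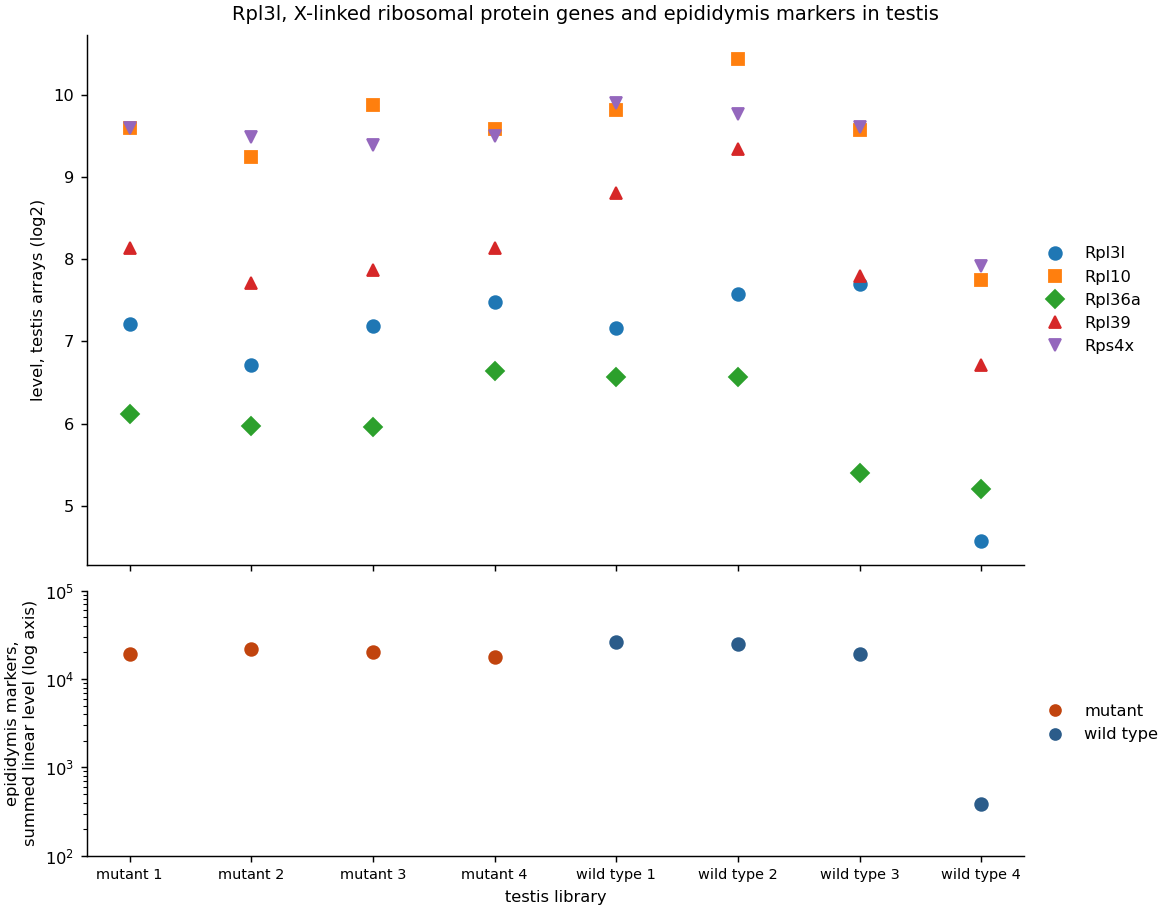
Upper panel: levels of Rpl3l and of the 4 X-linked ribosomal protein genes (log2, testis arrays normalized together) in the 8 testis libraries, mutants at left. Lower panel: summed linear level of the epididymis markers on a log axis; wild type 4 is lowest in both panels, with 389 for the markers.

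The dimmest array leaned the other way. In testis wild type 2, 34 of 67 members lay above all other testis libraries (50.7%, against 20.0% of all probes) and 1 below (1.49%, against 28.3% of all probes). Relative to the mean of the testis arrays the members' median was 0.00, -0.10, 0.05 and -0.00 in mutants 1 to 4, against 0.20, 0.35, -0.06 and -0.22 in wild types 1 to 4. The members' median residual standard deviation was 0.28 in testis, above the 0.21 of all probes. In brain and muscle it was 0.12 and 0.13, below the 0.16 and 0.17 of all probes. Without both wild types 2 and 4, a choice made after seeing the data, still 0 members passed between genotypes in testis.

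Among the core genes of the large subunit, the largest brain excess over muscle after Rpl3 was that of Rpl27a. It had 9.46, 9.77 and 10.00 in brain, against 7.63, 7.90 and 8.14 in muscle (difference 1.84, SE 0.10), and 5.80, 6.29 and 7.04 in testis, where testis minus brain was -3.32 (SE 0.17). Its other probe, near background, differed by 0.26 between brain and muscle (SE 0.09). Rpl5, which carries ribosomal RNA of the large subunit and can bind the p53 regulator Mdm2, had 7.53, 8.76 and 9.46 in testis, against 11.10, 11.29 and 11.51 in brain and 10.97, 11.12 and 11.26 in muscle. Testis minus brain was -2.67 (SE 0.22) and testis minus muscle -2.50 (SE 0.22). Rpl13a had -2.36 for testis minus brain (SE 0.20), and Rpl4, a protein of the exit tunnel, had -2.14 for testis minus muscle (SE 0.12). On the testis arrays normalized together both lay near background, at 4.42 to 5.42 for Rpl13a and 4.99 to 5.54 for Rpl4. The sizes of these 2 differences are therefore loose. Over the settings tried, that of Rpl13a ranged from -3.40 to -1.12 and that of Rpl4 from -2.66 to -1.24. These differences of Rpl5, Rpl13a, Rpl4 and the first Rpl27a probe passed, with adjusted p of at most 1.11e-08 in limma, and kept their direction with median scaling.

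In the small subunit, Rps15a and Rps21 followed the order brain, muscle, testis. Rps15a had 4.42, 4.93 and 5.54 in testis, against 8.75, 8.87 and 9.04 in brain and 6.69, 6.99 and 7.02 in muscle, with no overlap between tissues. It was detected on 5 of 8 testis arrays. Testis minus brain was -3.92 (SE 0.16, adjusted p = 8.70e-13, limma). With testis values partly at background, the size of this difference is loose: it ranged from -4.63 to -1.997 over the settings tried, the smallest without background correction. Brain exceeded muscle by 1.98 (SE 0.08). Rps21 had 8.78, 9.40 and 10.02 in testis, against 12.46, 12.58 and 12.73 in brain and 10.47, 10.53 and 10.85 in muscle. Testis minus brain was -3.15 (SE 0.15), and brain was 1.97 above muscle (SE 0.07). Rps3a1 had -2.33 for testis minus muscle (SE 0.19). Its testis values also lay near background, at 4.90 to 5.87 on the testis arrays normalized together. Over the settings tried this difference ranged from -2.80 to -1.315.

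Other small subunit members did not follow that order. Rps27l, a copy of Rps27 that p53 can induce, had 10.68, 11.10 and 11.52 in testis, against 9.70, 9.73 and 10.07 in brain and 11.68, 11.80 and 11.98 in muscle. Rps27l was 4.01-fold lower in brain than in muscle (log2 SE 0.07), a log2 difference of -1.68 with median scaling, and testis was 1.30 above brain (SE 0.12), which turned to -0.09 with median scaling. The parent Rps27 was -0.02 between brain and muscle (SE 0.06, adjusted p = 0.831, limma). Rps13 was 1.03 higher in testis than in brain (SE 0.08), but -0.31 with median scaling. Rps6, the substrate of the S6 kinases, was 0.92 higher in testis than in muscle (SE 0.10, 0.03 with median scaling) and 0.53 higher in brain than in muscle (SE 0.06, 0.97 with median scaling).

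With quantile normalization the stalk genes Rplp0 and Rplp1 did not move together. Rplp0, the base of the stalk, had 6.56, 7.05 and 7.23 in testis, against 5.74, 5.92 and 6.28 in brain and 7.57, 7.64 and 7.86 in muscle. Brain minus muscle was -1.70 (SE 0.09, -0.85 with median scaling), and testis was 1.03 above brain (SE 0.11), which turned to -0.41 with median scaling. Rplp1 was 0.70 higher in brain than in muscle (SE 0.06), which turned to -0.02 with median scaling. For Rplp1, testis minus brain was -0.25 (-0.81 with median scaling) and testis minus muscle 0.44 (-0.85 with median scaling). Testis minus muscle of Rplp0 was -0.67 (-1.26 with median scaling). With median scaling both genes were thus lower in testis than in either other tissue. The other Rplp0 probe did not enter these tests. Rplp2 was not detected.

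Testis exceeded muscle for Rpl30 by 0.99 (SE 0.20, 0.31 and no longer called with median scaling), for 1 Rpl23 probe by 0.81 (SE 0.10), for Rpl41 by 0.75 (SE 0.11) and for 1 Rpl38 probe by 0.69 (SE 0.08). The last 3 turned to -0.47, -0.55 and -0.64 with median scaling. Rpl38 has a role in translating Hox messages in mouse embryos, and its other probe went the opposite way, with -0.38 for testis minus muscle (SE 0.12). The other 2 tested Rpl23 probes were likewise lower in testis than in muscle, with differences of -1.34 (SE 0.13) and -0.46 (SE 0.14).

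Several genes had probes that differed in brightness or in the size of the difference. Between brain and muscle, the brighter Rpl7l1 probe was lower in brain (-0.69, SE 0.08, but 0.16 with median scaling), whereas the dim one was detected on 7 of 7 brain and 0 of 7 muscle arrays. Rps19 was 0.39 higher in brain by its brighter probe (SE 0.06). Its dim probe was called lower in brain, but it was detected on only 2 of 7 brain and 3 of 7 muscle arrays and cannot be set against the brighter one. For Rpl29, brain minus muscle was -1.25 by the first probe (SE 0.16) and -0.46 by the second (SE 0.15). Testis minus brain was 1.90 by the first (SE 0.62, 0.48 and no longer called with median scaling) and -0.02 by the second (SE 0.25). Of Rpsa, the laminin receptor and small subunit protein, 1 probe was never detected and the other was detected on all brain arrays, on 1 testis array and on no muscle array.

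Genes around the ribosome were read from lists and compared in the same fits. Only the main quantile normalization was run for these lists. Over 6 lists, limma called 0 genes between genotypes in any tissue. The lists held ribosomal proteins outside the symbol rule (only Fau, whose product matures into a small subunit protein, had a probe), ribosome biogenesis factors, the RNA polymerase I machinery, elongation factors and other messages with a pyrimidine tract, regulators of their translation, and mitochondrial ribosomal proteins. Of the mitochondrial ribosomal proteins, 2 of 76 probes were higher in brain than in muscle (2.63%, against 38.9% of all probes) and 66 lower (86.8%, against 40.3%, median -0.78, all probes -0.02). Brain minus muscle was -1.93 for Mrpl33 (SE 0.06) and -2.69 for Mrps28 (SE 0.09). In testis against muscle, 4 of 77 were higher (5.19%, against 37.5% of all probes) and 65 lower (84.4%, against 45.3%, median -1.16). In testis against brain 19 were higher (24.7%, against 35.9% of all probes) and 48 lower (62.3%, against 46.9%, median -0.40).

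Of the biogenesis factors, 7 of 45 probes were higher and 26 lower in brain than in muscle (15.6% and 57.8%, against 38.9% and 40.3% of all probes, median -0.42). In testis against brain 16 were higher and 20 lower (35.6% and 44.4%), near the 35.9% and 46.9% of all probes. In testis against muscle 10 of 44 were higher and 25 lower (22.7% and 56.8%, against 37.5% and 45.3%, median -0.65). Ncl, which encodes nucleolin of the nucleolus, had -2.83 for testis minus brain (SE 0.08) and -2.95 for testis minus muscle (SE 0.10). The polymerase I list, of 23 probes, lay near the shares of all probes for brain against muscle (30.4% higher and 39.1% lower) and for testis against brain (34.8% and 47.8%). In testis against muscle 17.4% were higher and 56.5% lower, against 37.5% and 45.3% of all probes. Ubtf, a transcription factor of ribosomal DNA, had -1.69 for testis minus brain (SE 0.09).

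Other messages with a pyrimidine tract split. Of 24 probes, 13 were higher and 10 lower in testis than in brain (54.2% and 41.7%, against 35.9% and 46.9% of all probes, median 0.47, against -0.62 for the ribosomal proteins). There, 1 probe of Pabpc1, the poly(A) binding protein, was 3.80 higher (SE 0.11). For the elongation factor gene Eef1d 1 probe was 3.95 higher (SE 0.10). Other probes of these 2 genes are not given here. Of 26 probes, 12 were higher and 13 lower in testis than in muscle (46.2% and 50%, against 37.5% and 45.3%). Of 27 probes, 5 were higher and 10 lower in brain than in muscle (18.5% and 37%, against 38.9% and 40.3%). Naca, a protein that binds nascent chains, was 2.08 higher in brain than in muscle by 1 probe (SE 0.08). Regulators counted 4 higher and 10 lower of 18 for brain against muscle (22.2% and 55.6%, against 38.9% and 40.3% of all probes). They counted 6 and 11 of 18 for testis against brain (33.3% and 61.1%, against 35.9% and 46.9%), and 4 and 10 of 16 for testis against muscle (25% and 62.5%, against 37.5% and 45.3%). Among them was Eif4ebp1, a translation repressor downstream of Mtor, at -3.84 for brain minus muscle (SE 0.07). Fau was 0.35 higher in brain than in muscle (SE 0.07), 0.55 higher in testis than in brain (SE 0.12) and 0.90 higher in testis than in muscle (SE 0.12). Median scaling, which reversed several differences of this size among the members, was not run for Fau or the lists.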

How the data were processed

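Total RNA of testis, brain and muscle was extracted with Trizol and RNeasy columns and amplified to biotinylated cRNA, per the labels' protocols; the submitters' processing notes name GenomeStudio 2011.1. The authors deposited non-normalized intensities and a detection p-value per probe and array. Their table of processed values, deposited as linear intensities with 4181 to 4202 values below 0 per array, served as an alternative; its scaling method was not given in the sources used here. Groups came from genotype and tissue labels, and mouse numbers differed between all arrays of a tissue.

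Intensities were background-corrected, quantile-normalized and taken to log2 by the neqc function (limma 3.58.1, R 4.3.3; offset 16, negative controls inferred from detection p-values), per tissue for genotype and over all 22 arrays for tissues. Probes with detection p under 0.05 on at least 3 arrays were kept. lmFit and eBayes of limma gave two-sided p-values, adjusted over all kept probes (Benjamini-Hochberg, 5%); the mouse was a block for brain minus muscle. Fits were tested on simulated data. The smallest exact permutation p of a genotype comparison is 0.0286.

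All 84 member probes had their gene in the RefSeq table, and 0 symbols differed. Members, lists and tests were chosen with earlier results of these data known. Named by rule were paralogues and their parents, stalk genes, Rps6, Rpsa, the 8 smallest p per genotype comparison, the 6 highest and 6 lowest per tissue comparison, genes with opposed probes, and up to 3 per pathway list. The text marks genes named for their values. A block on the slide was not run, as no slide is given.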

Additional observations from a re-analysis of the deposited data

Results flagged for a closer look

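Within groups of 4 mice, 10 sets of values, from 9 probes of named members, had 1 library whose distance from its nearest neighbour took up most of the group's range, out of 174 sets examined (5.75%, where chance gives about 5%). Levels are log2 on the arrays of the tissue. In testis, Rpl29 (probe ILMN_2730005) was 4.294 in mutant 4, with 8.24 to 8.38 in the other mutants. Rps27l was 9.534 in mutant 1 (9.94 to 9.98 in the other mutants) and Rps19 was 9.578 in the same library (9.27 to 9.29). Rpl37a was 8.492 in mutant 2 (8.73 to 8.76) and Rpl27a 5.852 in the same library (5.19 to 5.26). Rps4x was 7.921 in testis wild type 4 (9.61 to 9.89 in the other wild types), the library with few epididymis markers. In brain, Rpl3l was 5.843 in the library labelled mutant 2 (5.21 to 5.31 in the others labelled mutant), 1 of the 2 whose Sgms1 level goes against the label. That library also had 7 of 8 skeletal muscle markers detected, against 3 to 5 in the other brains. In muscle, Rplp1 was 13.65 in mutant 4 (13.79 to 13.81), Rpl29 (probe ILMN_2730005) 8.602 in mutant 1 (7.48 to 7.56), and Rpl31 (probe ILMN_3073486) 6.752 in mutant 2 (7.03 to 7.05). The causes of these values were not tested.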

How the results depend on the processing

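No genotype comparison and no comparison of genotype effects called a member under any setting that was run, the replicate block included (0 calls in each tissue). Same-numbered mutant and wild-type arrays deviated together weakly (correlations -0.01 to 0.02 in testis, -0.01 to 0.14 in brain and 0.02 to 0.10 in muscle), so the numbers were not treated as pairs. Leaving out 1 replicate moved the counts to 27 to 33 higher and 18 to 22 lower for brain minus muscle, 12 to 13 and 49 to 53 for testis minus brain, and 10 to 13 and 45 to 50 for testis minus muscle. Only median scaling moved a count by over 1.5 times: 48 higher and 10 lower in brain than in muscle, 4 higher in testis than in brain and 1 higher in testis than in muscle. It reversed Rps27 (0.256), Rpl22 (0.352), Rpl22l1 (0.075), Rpl7l1 (0.161), Rplp1 (-0.023) and Rps19bp1 (0.644) for brain minus muscle; Rpl36al (-0.447), Rplp0 (-0.414), Rps19bp1 (-0.843), Rps27l (-0.090), Rps6 (-0.939), Rpsa (0.043) and Rps13 (-0.311) for testis minus brain; and Rpl3 (-0.261), Rpl36al (-0.997), Rplp1 (-0.855), Rpl38 (-0.643), Rpl41 (-0.547) and Rpl23 (-0.469) for testis minus muscle. Leaving out 1 replicate moved Rps27 for brain minus muscle between -0.032 and 0.021 (positive without brain wild type 1), and Rps19bp1 for testis minus brain between -0.029 and 0.155 (negative without testis mutant 3, and -0.008 without wild type 3). Other reversals were Rplp1 with the authors' processed values (0.233, testis minus brain) and Rps19bp1 with wild-type arrays only (0.170, testis minus muscle). The cause was not tested. Calls of 22 single values were lost and 7 gained, 12 of the losses with wild-type arrays only, which has fewer samples. The planned slide block was not run. Dim members such as Rpl39l, Rps15a in testis and Rpl22l1 lie near background, which compresses their differences.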
